A study of Mus musculus with 11 samples.

Results

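The genes described here carry out the central steps of carbon metabolism: glucose uptake, glycolysis, lactate formation, the entry of pyruvate into mitochondria, the citrate cycle and the storage and release of glycogen. They were chosen by a list of 39 gene symbols, of which 35 were measured under their own name among 22180 genes in all. Gpi1, Eno1 and G6pdx had no probe set named for them here, and the probe set of Aldoa is shared with Aldoart1, so these 4 were not analysed here. The 35 measured genes fall into 8 for uptake and the hexokinase to aldolase steps, 7 for the triose to lactate steps, 5 for the pyruvate gate, 9 for the citrate cycle, 4 for glycogen, and Hif1a and Pgd on their own.

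Expression was measured on Affymetrix arrays in hematopoietic stem cells (HSCs), the marrow cells from which all blood lineages descend, sorted by flow cytometry from injected mice. In the pIC group (n = 2 arrays) the mice had received polyIC, a synthetic RNA duplex sensed like viral RNA, which sets off an interferon response. The RApIC group (n = 3) had received ATRA (all-trans retinoic acid, through which vitamin A acts on gene expression) before polyIC, the ATRA group (n = 3) ATRA alone, and the PBS group (n = 3) saline. The mouse strain, age, doses, times, sorting gate and whether replicates were separate mice are not stated in the labels, so the p-values reflect the spread among these particular arrays, and that spread may be technical. Values are log2 intensities, in which a difference of 1 is a 2-fold difference in probe brightness, and they are compared between groups for a gene and never between genes.

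Glycolysis breaks glucose down to pyruvate, which is either turned into lactate in the cytosol or burned in mitochondria through the citrate cycle. Pyruvate dehydrogenase is the gate between the 2 fates, and the Pdk kinases close it. Dormant HSCs are known for leaning on glycolysis and for holding pyruvate dehydrogenase in check, with HIF-1, the hypoxia-responsive transcription factor, as a known driver of that programme, while dividing HSCs draw more on mitochondria. Glycogen is a stored form of glucose, made by glycogen synthase and released by the glycogen phosphorylases.

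HIF-1 binds DNA with the core letters ACGTG or GCGTG, and many promoters of glycolytic genes hold them. The stretches below are the 150 bases just before the start of 5 genes that differed between pIC and PBS arrays in this study, from RefSeq on GRCm38.p6, read along the strand of the gene, with each ACGTG or GCGTG on either strand in capitals (CACGT and CACGC are the same letters read on the opposite strand). They are a hand-picked part of the genes that differed: the first 4 were lower in pIC arrays and the fifth was higher. Pdk1, Hk1, Cs and Idh3a also differed and are not printed.
Pygm, chr19:6384258-6384407, plus strand: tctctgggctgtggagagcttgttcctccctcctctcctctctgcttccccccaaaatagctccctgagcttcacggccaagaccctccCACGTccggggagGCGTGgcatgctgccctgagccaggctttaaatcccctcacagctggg
Pygl, chr12:70227684-70227833, minus strand: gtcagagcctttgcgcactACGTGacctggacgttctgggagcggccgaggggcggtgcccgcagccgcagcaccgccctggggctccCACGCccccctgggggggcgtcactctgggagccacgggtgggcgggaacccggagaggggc
Ldhb, chr6:142507958-142508107, minus strand: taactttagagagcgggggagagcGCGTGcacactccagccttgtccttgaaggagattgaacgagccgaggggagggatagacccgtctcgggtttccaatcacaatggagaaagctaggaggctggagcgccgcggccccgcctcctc
Aldoc, chr11:78322923-78323072, plus strand: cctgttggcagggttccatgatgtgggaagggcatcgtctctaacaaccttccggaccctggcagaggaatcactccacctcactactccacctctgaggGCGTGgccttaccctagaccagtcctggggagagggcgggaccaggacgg
Mdh2, chr5:135778499-135778648, plus strand: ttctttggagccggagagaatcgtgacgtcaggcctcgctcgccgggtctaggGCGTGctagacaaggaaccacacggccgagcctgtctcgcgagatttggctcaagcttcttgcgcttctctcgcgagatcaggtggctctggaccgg

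In the whole promoter windows, which run from 250 bases before to 50 after the start, 17 of the 33 genes with a window held ACGTG (51.5%, against 21.8% of the 27025 genes in the table). GCGTG was found in 22 of the 33 (66.7%, against 35.2%), and either of them in 28 (84.8%, against 46.7%). The longer CACGTG, which contains ACGTG, was in 5 (15.2%, against 8.09%). Of the 5 genes that fell with pIC, 3 held ACGTG and 5 held GCGTG. Of the 3 that rose and have a window, 1 held ACGTG and 2 held GCGTG, while Cs held neither. A gene was counted if any of its windows held the letters, and 10 of the 33 have more than 1 window. The table has 32851 windows for its 27025 genes, and the number of windows per gene was not matched. A match is only a run of letters in the window, base composition was not matched between the genes and the table, and Slc2a3 and Idh3a had no window.

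Median log2 intensity lay between 6.53 and 6.64 on all 11 arrays, and the HSC markers measured stood between the 68.8th and the 99.6th percentile of all genes by mean level. On the first principal component of all genes RApIC replicate 2 lay at -4.53, whereas RApIC replicates 1 and 3 lay at 35.8 and 23.3 and the pIC arrays at 35.0 and 37.8. Its 13 type I interferon targets had a median of 1.47 above the PBS mean, against 2.66 and 2.23 for RApIC replicates 1 and 3, so the main results that use the RApIC group are given with and without it. Some markers of other cells moved with polyIC. The 17 T and NK cell markers summed to 10721 to 11271 intensity units on pIC arrays, 2074 to 12990 on RApIC, 1611 to 2013 on ATRA and 1496 to 1981 on PBS arrays. These sums weight bright genes: Ccl5 alone was at 12.94 and 12.79 on pIC arrays, against 7.51, 8.28 and 8.36 on PBS arrays. The median log2 difference of the 17 markers in pIC against PBS arrays was 0.897. The 12 macrophage and monocyte markers summed to 2941 to 2998, 1898 to 3468, 1530 to 1742 and 1409 to 1589 units in the same order of groups. Of these, Mpeg1 was at 9.78 and 9.48 on pIC arrays, against 5.36, 5.18 and 5.34 on PBS arrays. Ly6c2 was at 9.31 and 9.98, against 6.21, 5.82 and 5.99, but Lyz2 at 7.88 and 7.69, against 8.56, 8.65 and 8.32. The median log2 difference of the 12 markers in pIC against PBS arrays was 0.0846. The 12 erythroid markers summed to 12937 to 14423, 5662 to 11438, 6848 to 7694 and 7647 to 8594 units. The 9 HSC markers summed to 9010 to 9351, 8995 to 13845, 15007 to 15978 and 14621 to 15761 units, and 13 proliferation genes to 22854 to 23093, 20256 to 21301, 15057 to 16832 and 17401 to 18866 units. RApIC replicate 2 differed here too. Relative to the PBS mean its T and NK cell median was 0.0501, against 1.45 and 1.37 on replicates 1 and 3. Its erythroid median was -0.286, against 0.572 and 0.343, and its HSC median -0.199, against -0.630 and -0.513. Its proliferation median was like theirs (0.272, against 0.226 and 0.267). In pIC against PBS arrays 3 of the 17 T and NK cell and 3 of the 12 macrophage and monocyte genes rose. So did 7 of the 12 erythroid and 10 of the 13 proliferation genes. Of the 9 HSC markers 6 fell, and of 13 megakaryocyte and platelet genes 5 rose and 2 fell. Of all genes, 8.94% rose and 5.75% fell at the same threshold, limma's adjusted p under 0.05. ATRA replicate 1 stood apart in some neutrophil granule genes. Elane was at 10.08, 6.48 and 6.48 on ATRA replicates 1, 2 and 3, against 6.32, 5.99 and 6.32 on PBS arrays. Mpo and Ctsg were also high on ATRA replicate 1 (9.47 and 8.53), while Ltf and Camp (5.50 and 4.13) were not above the PBS arrays. The 12 neutrophil markers summed to 1009 to 3134 units on ATRA and 808 to 880 on PBS arrays. Their median lay 0.565 above the PBS mean on ATRA replicate 1, and 0.00449 and 0.0734 above it on replicates 2 and 3. The part of these shifts in the gene results below was not tested, and in sorted bulk samples fewer cells of a type and less RNA per cell cannot be told apart.

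With polyIC alone, the carbon genes did not move together. Of the 35, 9 passed the test in pIC against PBS arrays (25.7%, against 14.7% of all genes at limma's Benjamini-Hochberg adjusted p under 0.05): 4 rose (background 8.94% of genes) and 5 fell (background 5.75%). The genes that fell were the glycogen phosphorylases Pygm and Pygl, the aldolase Aldoc, the lactate dehydrogenase subunit Ldhb and the kinase Pdk1, and those that rose were the hexokinase Hk1 and the citrate cycle enzymes Idh3a, Mdh2 and Cs. The median log2 difference of the 35 genes was 0.06, against 0.0013 for all genes, and the median absolute difference was 0.23, against 0.147. At an unadjusted p under 0.05, 17 of the 35 passed (background 27.5%). The dimmest of the 35, Pdk4, stood at percentile 47.2 of all genes by mean level. With the dimmest 40% of genes left out, 10 of the 35 passed, against 28.7% of all genes, so their share was then close to that background.

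**Figure D1:**
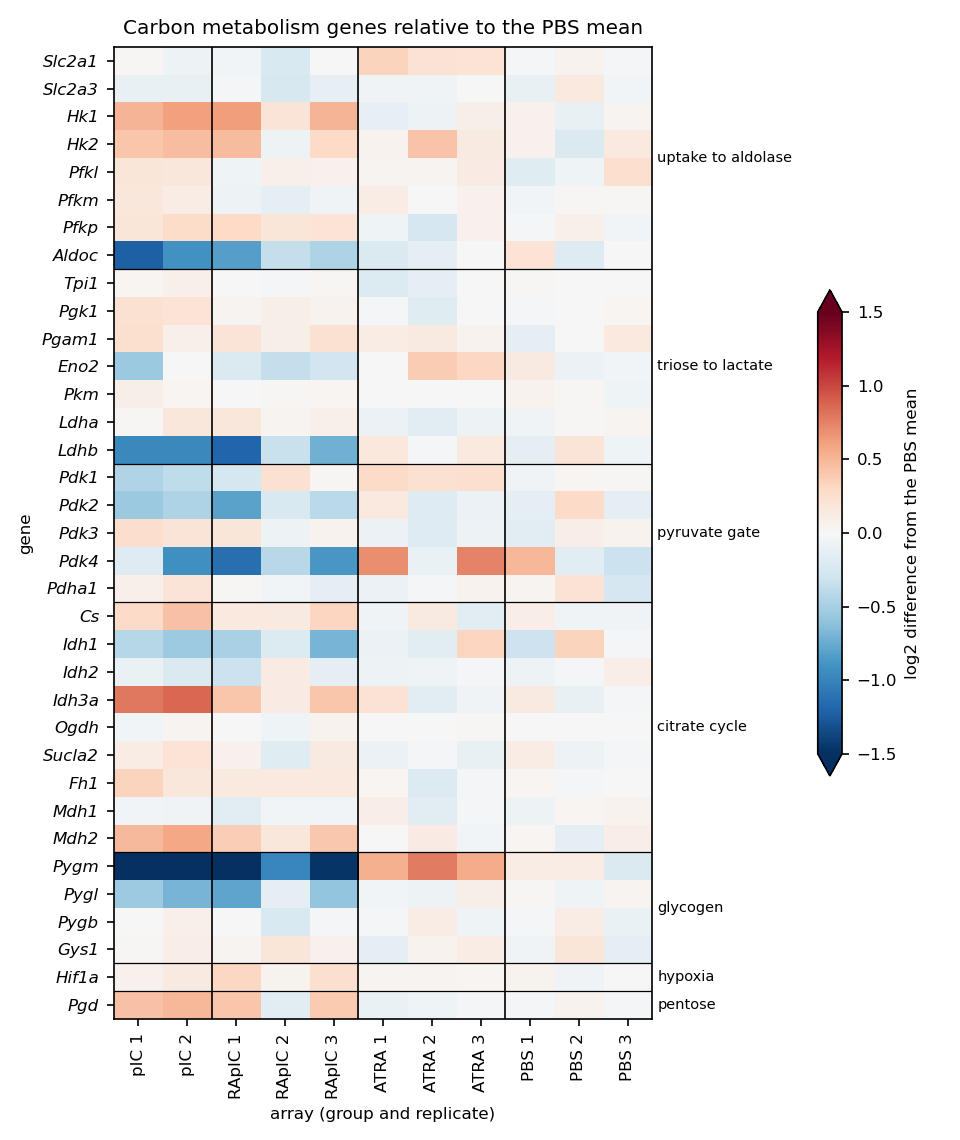
Log2 difference of each of the 35 carbon metabolism genes (rows, grouped by role) from its PBS mean on each of the 11 arrays (columns: pIC, RApIC, ATRA, PBS), with colours saturated at 1.5 in both directions. Pygm is the darkest blue row on pIC and RApIC arrays, Idh3a, Hk1 and Mdh2 are red on pIC arrays, and RApIC replicate 2 is paler than the other RApIC arrays in most of these rows.

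Of the 4 glycogen genes, 2 fell, and Pygm had the largest difference of the 35 genes. Pygm, the muscle-type glycogen phosphorylase that frees glucose units from glycogen, was at 7.50 and 7.51 on the pIC arrays, against 9.44, 9.43 and 9.10 on the PBS arrays. Both pIC arrays lay far below every PBS array, and the difference was -1.82 ± 0.34 log2 units (SE; 3.53-fold lower, 95% interval -2.56 to -1.08, adjusted p = 0.00715). Pygl, the liver-type phosphorylase, was at 8.43 and 8.28 on pIC arrays, against 8.99, 8.91 and 9.02 on PBS arrays, again without overlap, and fell by 0.62 ± 0.15 (1.53-fold, adjusted p = 0.0234). Without either pIC array in turn, Pygm and Pygl did not pass (adjusted p up to 0.0612 for Pygm and up to 0.161 for Pygl over all arrays left out), and Pygl also lost its call without PBS replicate 1 or 3. Pygb, the brain-type phosphorylase, gave 8.91 and 8.98 on pIC arrays, against 8.88, 9.02 and 8.81 on PBS arrays, a difference of 0.04 with an interval of -0.19 to 0.26. Gys1, the glycogen synthase of most tissues, was at 8.43 and 8.51 on pIC arrays, against 8.37, 8.60 and 8.28 on PBS arrays, a difference of 0.06 with an interval of -0.19 to 0.30. For both of these genes the groups overlapped.

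In the first steps of glycolysis 1 gene rose and 1 fell among 8. Hk1, the hexokinase that traps glucose in the cell by adding a phosphate, was at 8.88 and 8.98 on pIC arrays, against 8.43, 8.25 and 8.41 on PBS arrays, a rise of 0.56 ± 0.13 (1.48-fold, adjusted p = 0.0158). Its groups did not overlap, but the call was lost without PBS replicate 2 or either pIC array. Aldoc, an aldolase that splits fructose bisphosphate and is best known from the brain, was at 6.92 and 7.24 on pIC arrays, against 8.34, 7.96 and 8.14 on PBS arrays, a fall of 1.07 ± 0.16 (2.10-fold, adjusted p = 0.00319). Its adjusted p stayed between 0.00115 and 0.0379 whichever array was left out. Hk2, the second hexokinase, differed by 0.43 ± 0.17 without passing (adjusted p = 0.118). The phosphofructokinase subunits Pfkl, Pfkm and Pfkp, which form the committed step of glycolysis, differed by 0.14 to 0.23, with intervals from -0.09 to 0.45. The glucose transporters Slc2a1 and Slc2a3 differed by -0.03 and -0.11, with intervals of -0.23 to 0.17 and -0.32 to 0.10.

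In the triose to lactate steps 1 of 7 genes, Ldhb, fell and none rose. Tpi1, Pgk1, Pgam1, Pkm and Ldha, which carry triose phosphates through to pyruvate and lactate, differed between pIC and PBS arrays by 0.05 to 0.22, and their intervals reached no further than -0.12 and 0.39, which is 1.31-fold. The arrays of Pgk1 did not overlap and its interval of 0.04 to 0.39 lies above 0, but it did not pass (adjusted p = 0.0967), and the other 4 had larger adjusted p, up to 0.754 for Tpi1. Pkm, the pyruvate kinase, was at 10.77 and 10.70 on pIC arrays, against 10.73, 10.69 and 10.62 on PBS arrays, and the groups overlapped. Pgam1 has near-identical copies in the mouse genome, so its probe set may read more than 1 gene. Eno2, the neuronal enolase, was at 6.97 and 7.52 on pIC arrays, against 7.65, 7.43 and 7.48 on PBS arrays, and its difference of -0.28 ± 0.16 did not pass (adjusted p = 0.308).

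Ldhb encodes the heart-type subunit of lactate dehydrogenase, which favours turning lactate back into pyruvate, and was at 7.81 on both pIC arrays, against 8.64, 8.97 and 8.71 on PBS arrays. The groups were well apart, and the fall was 0.97 ± 0.20 (1.95-fold, adjusted p = 0.0110), lost when either pIC array was left out. Ldha, the muscle-type subunit of the same enzyme, was at 9.12 and 9.27 on pIC arrays, against 9.04, 9.12 and 9.14 on PBS arrays, a difference of 0.10 with an interval of -0.09 to 0.28.

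**Figure D2:**
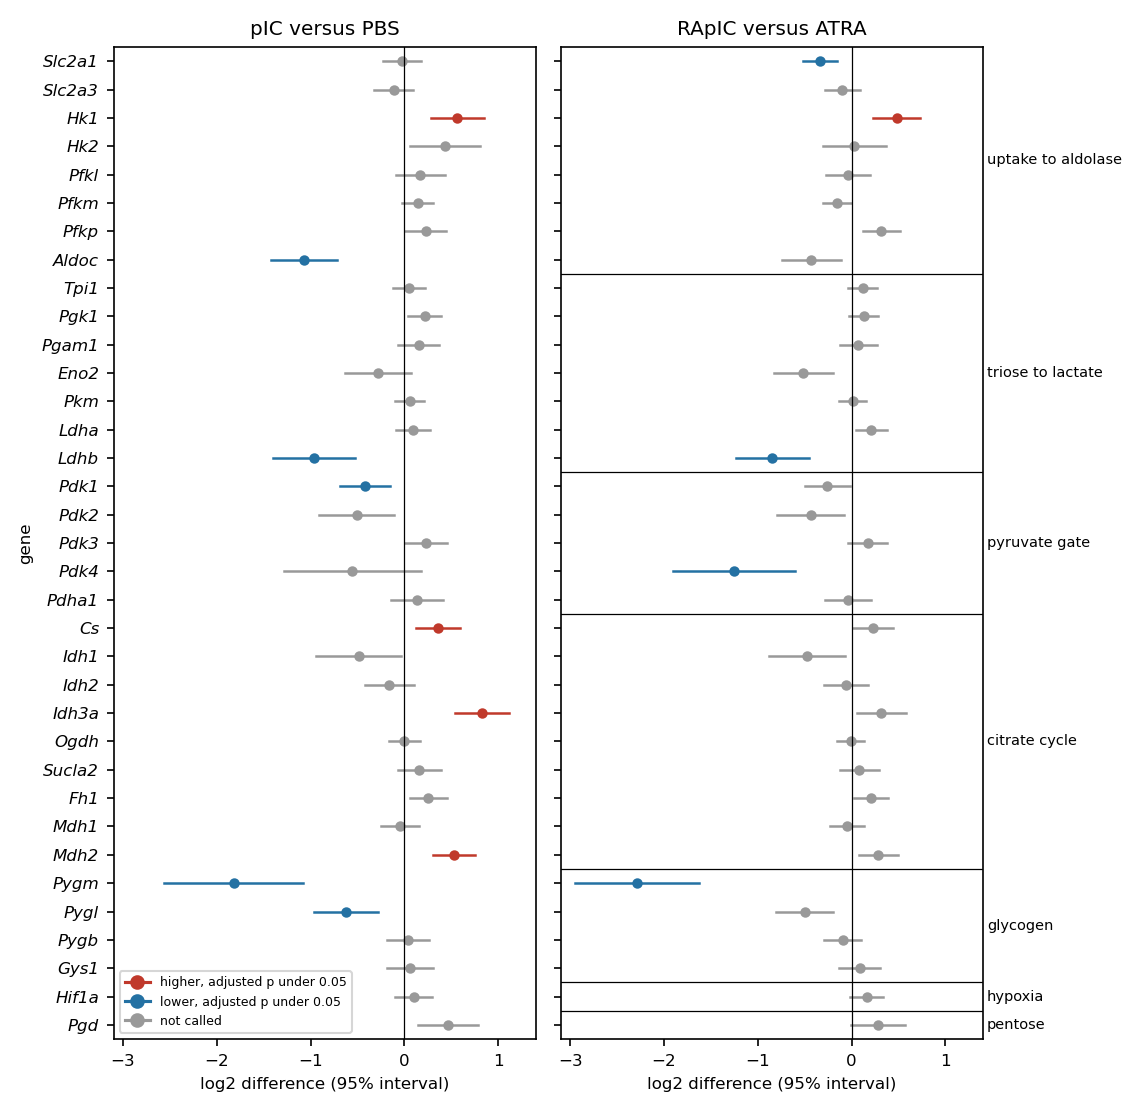
Log2 difference with its 95% interval for each of the 35 genes (rows, grouped by role) in pIC against PBS (left) and RApIC against ATRA (right), with red and blue marking genes higher or lower at adjusted p under 0.05. Most intervals of the uptake, triose and citrate cycle genes lie within 0.5 of 0, while Pygm, Ldhb, Pdk4 and, in the left panel, Aldoc reach far to the left.

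At the pyruvate gate 1 of 5 genes passed. Pdk1, a kinase that switches pyruvate dehydrogenase off, was at 7.57 and 7.65 on pIC arrays, against 7.97, 8.06 and 8.05 on PBS arrays. The groups did not overlap and the fall was 0.42 ± 0.12 (1.33-fold, adjusted p = 0.0429). That call is fragile: it was lost without any 1 of the PBS, ATRA or pIC arrays or without RApIC replicate 3. A second, dim probe set of Pdk1 (mean 3.65, against 8.02 for the one used) went the opposite way, by 0.65 ± 0.15 (adjusted p = 0.0176), so the direction for Pdk1 depends on the probe set. Pdk2, a related kinase, was at 7.23 and 7.33 on pIC arrays, against 7.64, 8.07 and 7.65 on PBS arrays, a difference of -0.51 ± 0.18 that did not pass (adjusted p = 0.0864). Pdk3 differed by 0.23 ± 0.10 (adjusted p = 0.177), and Pdk4, the kinase raised by fasting in other tissues, by -0.55 ± 0.33 with overlapping groups (adjusted p = 0.328). Pdha1, the catalytic subunit that these kinases phosphorylate, differed by 0.14 with an interval of -0.14 to 0.41.

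Of the 9 citrate cycle genes, 3 passed (33.3%, against 14.7% of all genes) and these 3 rose. Of all genes called in pIC against PBS arrays, 60.9% were higher. Idh3a, the catalytic subunit of the NAD-dependent isocitrate dehydrogenase that feeds the respiratory chain, was at 9.95 and 10.02 on pIC arrays, against 9.29, 9.05 and 9.14 on PBS arrays. Both pIC arrays lay above every PBS array, and the rise was 0.83 ± 0.13 (1.77-fold, adjusted p = 0.00385), with an adjusted p no higher than 0.0459 whichever array was left out. Mdh2, the mitochondrial malate dehydrogenase that closes the cycle, was at 11.19 and 11.28 on pIC arrays, against 10.73, 10.57 and 10.80 on PBS arrays, a rise of 0.53 ± 0.10 (1.44-fold, adjusted p = 0.00894), lost without pIC replicate 2. Cs, the citrate synthase that opens the cycle, was at 10.01 and 10.16 on pIC arrays, against 9.82, 9.67 and 9.67 on PBS arrays, a rise of 0.36 ± 0.11 (1.28-fold, adjusted p = 0.0469). The call of Cs sits at the threshold and was lost without any PBS or pIC array, ATRA replicate 1, or RApIC replicate 1 or 3.

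The other 6 citrate cycle genes did not pass. Fh1, the fumarate hydratase, was closest, at 9.72 and 9.56 on pIC arrays, against 9.41, 9.36 and 9.38 on PBS arrays (0.25 ± 0.09, adjusted p = 0.0858). Mdh1, the cytosolic malate dehydrogenase, differed by -0.05 with an interval of -0.25 to 0.16, and Idh1, the cytosolic NADP-dependent isocitrate dehydrogenase, by -0.49 ± 0.21 (adjusted p = 0.151). Idh2, Sucla2 and Ogdh, the mitochondrial enzymes of isocitrate, succinyl-CoA and oxoglutarate, differed by -0.16, 0.16 and 0.00. For Ogdh the interval of -0.16 to 0.16 is among the narrowest of the 35 genes.

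Hif1a, the oxygen-regulated subunit of HIF-1 whose control is largely at the protein level, was at 9.56 and 9.62 on pIC arrays, against 9.55, 9.43 and 9.49 on PBS arrays, a difference of 0.10 with an interval of -0.10 to 0.29. Pgd, an NADPH-producing enzyme of the pentose phosphate branch, was at 10.74 and 10.80 on pIC arrays, against 10.28, 10.35 and 10.28 on PBS arrays. These groups were clearly apart, yet the difference of 0.47 ± 0.15 (1.38-fold) just missed the threshold (adjusted p = 0.0583). In the RApIC group, which shares the estimate of the spread, replicates 1, 2 and 3 were at 10.72, 10.15 and 10.70. Without RApIC replicate 2 the difference between pIC and PBS passed (adjusted p = 0.00198).

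**Figure D3:**
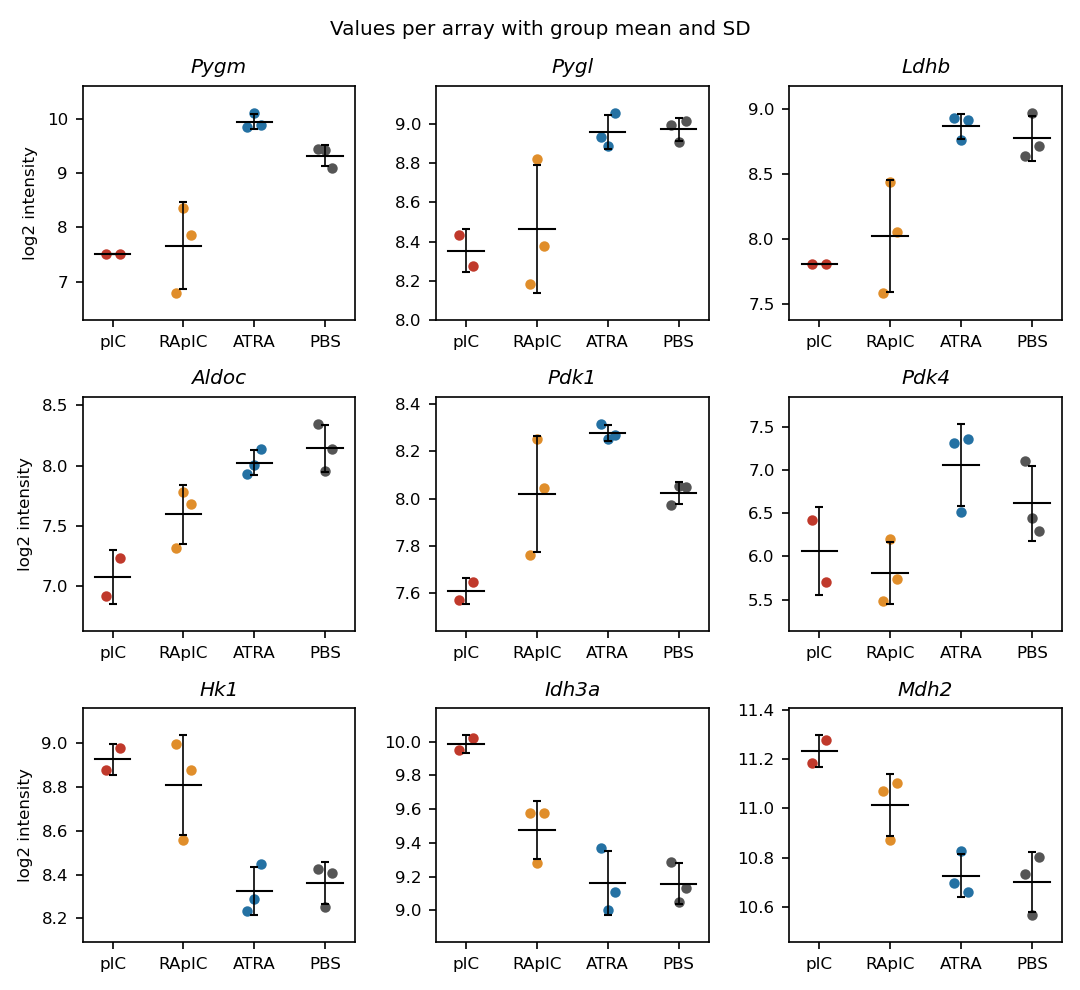
Log2 intensity of 9 genes on each array (points), with the group mean (horizontal line) and SD (bar), for pIC (n = 2), RApIC, ATRA and PBS (n = 3 each); each panel has its own vertical range. Pygm, Pygl, Ldhb and Aldoc are lower and Hk1, Idh3a and Mdh2 higher on pIC than on PBS arrays. By SD, the RApIC points spread most in Pygm, Ldhb, Pdk4 and Pygl.

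When ATRA preceded polyIC, Pygm and Ldhb fell again. Against ATRA arrays, 5 of the 35 passed in RApIC arrays (14.3%, against 7.21% of all genes): 1 rose (background 3.5%) and 4 fell (background 3.71%). Pygm was at 6.78, 8.35 and 7.85 on RApIC arrays, against 9.85, 10.11 and 9.88 on ATRA arrays. Even the highest RApIC array, replicate 2, was well below the lowest ATRA array, and Pygm fell by 2.29 ± 0.30 (4.88-fold, adjusted p = 0.00284). That call held whichever array was left out, and without RApIC replicate 2 Pygm fell by 2.63. Ldhb was at 7.58, 8.44 and 8.05 on RApIC arrays, against 8.93, 8.76 and 8.92 on ATRA arrays, a fall of 0.84 ± 0.18 (adjusted p = 0.0202), or 1.05 without RApIC replicate 2 (adjusted p = 0.00111). Hk1 was at 8.99, 8.56 and 8.88 on RApIC arrays, against 8.24, 8.29 and 8.45 on ATRA arrays, a rise of 0.48 ± 0.11 (adjusted p = 0.0307), or 0.61 without that array (adjusted p = 0.00249). These 3 genes had moved the same way in pIC against PBS arrays. With the dimmest 40% of genes left out, 8 of the 35 passed in RApIC against ATRA arrays, against 16% of all genes.

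A further pair of genes passed in this comparison alone, although the difference between comparisons did not pass for either. Pdk4 was at 5.48, 6.20 and 5.74 on RApIC arrays, against 7.31, 6.51 and 7.36 on ATRA arrays, a fall of 1.25 ± 0.30 (2.38-fold, adjusted p = 0.0307), or 1.45 without RApIC replicate 2 (adjusted p = 0.0123). The groups did not overlap, but 1 ATRA array lay close to the RApIC range, and the call was lost without ATRA replicate 1 or 3 or RApIC replicate 1 or 3. Slc2a1, the GLUT1 glucose transporter, was at 9.84, 9.65 and 9.89 on RApIC arrays, against 10.22, 10.09 and 10.09 on ATRA arrays, a fall of 0.34 ± 0.08 (1.26-fold, adjusted p = 0.0329), or 0.27 without RApIC replicate 2 (adjusted p = 0.0478). Its call was lost without any ATRA array or RApIC replicate 1 or 3, and its second probe set, at a mean of 5.55, differed by -0.12 without passing. The Hk1 call was lost without ATRA replicate 1 or 2 or RApIC replicate 1 or 3, and that of Ldhb without any ATRA array or RApIC replicate 3. All 4 calls other than that of Pygm were lost without ATRA replicate 1, and also without RApIC replicate 3. Over all genes the number called fell from 1599 to 594, 624 and 755 without ATRA replicates 1, 2 and 3 in turn. ATRA replicate 1 is the array with some high neutrophil genes, such as Elane. The part of that signal was not tested.

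Leaving RApIC replicate 2 out brought 12 of the 35 genes past the threshold in RApIC against ATRA arrays (4 rose and 8 fell, against 14.5% of all genes without that array). The 7 added were Aldoc, Idh3a, Mdh2, Pdk1, Pdk2, Pgd and Pygl. For Idh3a the values were 9.58, 9.28 and 9.58 on RApIC arrays, against 9.37, 9.003 and 9.11 on ATRA arrays, a difference of 0.32 ± 0.12 with all arrays (adjusted p = 0.138) and 0.42 without replicate 2 (adjusted p = 0.0367). Pygl was at 8.19, 8.82 and 8.38 on RApIC arrays, against 8.93, 8.89 and 9.05 on ATRA arrays, a difference of -0.50 ± 0.14 with all arrays (adjusted p = 0.0553) and -0.68 without replicate 2 (adjusted p = 0.00129). In both genes replicate 2 was the RApIC array nearest to the ATRA values. Eno2, at 7.30, 7.16 and 7.23 on RApIC arrays, against 7.52, 7.90 and 7.83 on ATRA arrays, differed by -0.51 ± 0.14 without passing (adjusted p = 0.0556), or by -0.48 without RApIC replicate 2 (adjusted p = 0.0843).

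Against PBS arrays, 2 of the 35 genes passed in RApIC arrays (5.71%, against 3.11% of all genes), and both fell (background 1.51%; 1.61% of all genes rose). Pygm fell by 1.66 ± 0.30 (3.17-fold, adjusted p = 0.0174) and Ldhb by 0.75 ± 0.18 (1.68-fold, adjusted p = 0.0498). The RApIC arrays of both genes lay below every PBS array, but Pygm lost its call without PBS replicate 1 or 2 or RApIC replicate 3, and Ldhb without any array but RApIC replicate 2. With the dimmest 40% of genes left out, 5 of the 35 passed, against 9.11% of all genes. Without RApIC replicate 2 but with all genes kept, 10 passed (5 rose and 5 fell, against 11.1% of all genes). Pygm then fell by 2.01 and Ldhb fell by 0.96. The 8 added were Aldoc, Hk1, Idh3a, Mdh2, Pygl and Pgd, with Pdk2 at -0.60 (adjusted p = 0.0422) and Hif1a at 0.27 (adjusted p = 0.0424).

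The shifts with polyIC in mice with and without ATRA can be set side by side, since RApIC against ATRA and pIC against PBS share no array. The log2 differences had the same sign in 30 of the 35 genes (85.7%, against 68.8% of all genes), and in 31 of 35 (88.6%, against 70.2%) without RApIC replicate 2. Across these genes, which are not independent replicates, Pearson's r was 0.90, or 0.92 without that array, against 0.81 and 0.84 across all genes. No gene passed in the test of the difference between the comparisons (0% of all genes, limma's interaction term). At an unadjusted p under 0.05 it gave 4 of the 35 genes (background 6.27%). Those 4 were Aldoc (0.64, interval 0.17 to 1.11, adjusted p = 0.757), Idh3a (-0.51, -0.90 to -0.12, adjusted p = 0.775), Pfkm (-0.29, -0.52 to -0.07, adjusted p = 0.775) and Slc2a1 (-0.31, -0.58 to -0.04, adjusted p = 0.786). For Pygm the difference between comparisons was -0.47, with a wide interval of -1.46 to 0.53 at this number of arrays, and -0.81 without RApIC replicate 2 (adjusted p = 0.8004). Without that array the other 4 values were 0.55 for Aldoc, -0.41 for Idh3a, -0.26 for Pfkm and -0.24 for Slc2a1, with adjusted p from 0.782 to 0.815.

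**Figure D4:**
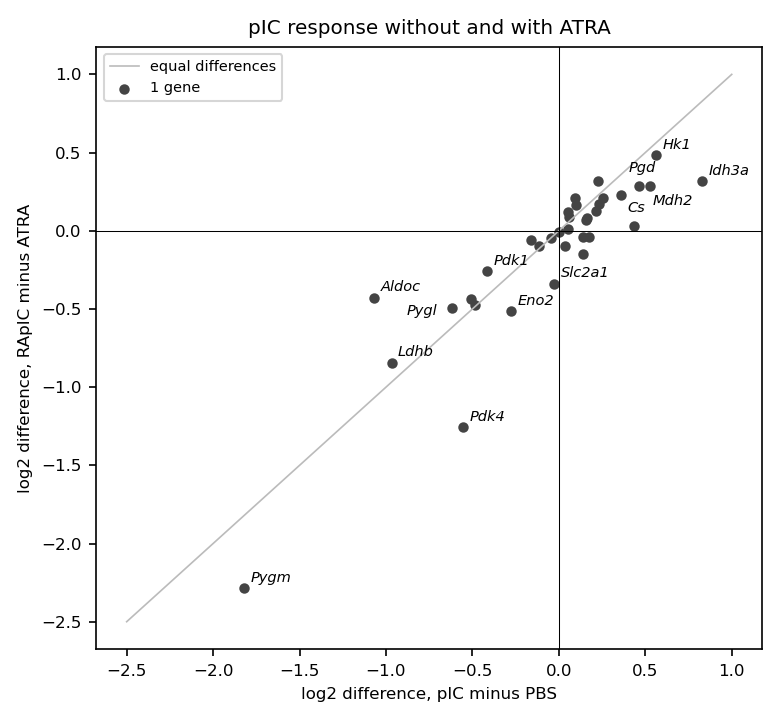
Log2 difference in RApIC against ATRA (vertical axis) plotted against that in pIC against PBS (horizontal axis) for the 35 genes (points), with a grey line where both would be equal. Pygm and Ldhb lie far into the lower left near the line, Aldoc and Idh3a lie nearer to 0 on the vertical axis than on the horizontal one, and Pdk4 lies below the line.

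ATRA alone moved none of the 35 genes past the threshold (0.00451% of all genes passed). At an unadjusted p under 0.05, 2 of the 35 passed in limma (background 6.8%): Slc2a1, at 10.22, 10.09 and 10.09 on ATRA arrays, against 9.86, 9.93 and 9.85 on PBS arrays, and Pdk1, at 8.32, 8.25 and 8.27, against 7.97, 8.06 and 8.05. Their share was no higher than that background. They differed by 0.25 ± 0.08 (interval 0.07 to 0.43, adjusted p = 0.567) and 0.25 ± 0.11 (0.01 to 0.49, adjusted p = 0.719). Pygm differed by 0.62 ± 0.30 (interval -0.04 to 1.29, adjusted p = 0.763). Pdk4 differed by 0.45 with overlapping groups.

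ATRA given before polyIC did not set RApIC apart from pIC arrays for any of the 35 genes at the adjusted threshold (0% of all genes passed). At an unadjusted p under 0.05, 4 of the 35 passed in limma, a share close to the background of 10.1%. Idh3a was at 9.58, 9.28 and 9.58 on RApIC arrays, against 9.95 and 10.02 on pIC arrays, a difference of -0.51 ± 0.13 (interval -0.80 to -0.22, adjusted p = 0.279). Aldoc was at 7.32, 7.79 and 7.69 on RApIC arrays, against 6.92 and 7.24 on pIC arrays, a difference of 0.52 ± 0.16 (interval 0.17 to 0.87, adjusted p = 0.346). Pdk1, at 7.76, 8.25 and 8.04, against 7.57 and 7.65, differed by 0.41 ± 0.12 (adjusted p = 0.325), whereas its second, dim probe set differed by -0.55 ± 0.15 (adjusted p = 0.279). Pfkm differed by -0.23 ± 0.08 (adjusted p = 0.360). In Idh3a and Aldoc the RApIC mean lay between the pIC and PBS means, in Pdk1 at the PBS mean of 8.02, and in Pfkm below the PBS mean (8.19, against 8.28). Without RApIC replicate 2 the differences were -0.41 for Idh3a, 0.43 for Aldoc, 0.29 for Pdk1 and -0.20 for Pfkm, with none past the threshold. RApIC arrays also varied more among themselves, with a median SD of 0.124 over the 35 genes (0.120 over all genes), against 0.0598 in pIC (0.0767), 0.0923 in ATRA (0.103) and 0.104 in PBS arrays (0.116).

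Neighbouring genes of the same pathways, 76 measured of 85 listed, were counted in the same fit. In pIC against PBS arrays 11 rose and 4 fell (19.7%, against 14.7% of all genes). Among those that rose were Slc16a1, the lactate and pyruvate transporter MCT1 (0.71, adjusted p = 0.00392), Mpc1, a subunit of the mitochondrial pyruvate carrier (0.63, adjusted p = 0.0122), and Sdhb and Sdhd, subunits of succinate dehydrogenase in the citrate cycle (0.50, adjusted p = 0.0133, and 0.54, adjusted p = 0.0195). Taldo1, the transaldolase of the pentose phosphate branch, rose by 0.76 (adjusted p = 0.00421) and Me2, a mitochondrial malic enzyme, by 0.60 (adjusted p = 0.0137). Fbp1, the fructose bisphosphatase that runs the phosphofructokinase step backwards, fell by 1.17 (adjusted p = 0.00273). Egln3, an oxygen-sensing prolyl hydroxylase, fell by 0.83 (adjusted p = 0.0184). It was the only 1 of the 13 neighbouring hypoxia genes to pass (7.69%, against 14.7% of all genes). Of the 13, 6 differed upward and 7 downward. The other 7 of the 15 passed with larger adjusted p.

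In RApIC against ATRA arrays 4 of the 76 rose and 4 fell (10.5%, against 7.21% of all genes). Slc16a1 (0.42), Sdhb (0.41), Sdhd (0.53) and Taldo1 (0.48) rose again, with adjusted p from 0.0224 to 0.0338. Without RApIC replicate 2 these were 0.49 for Slc16a1, 0.52 for Sdhb, 0.47 for Sdhd and 0.61 for Taldo1, and each still passed. Egln3 fell by 1.202 (adjusted p = 0.00440), Gaa, the lysosomal enzyme that digests glycogen, by 0.47 (adjusted p = 0.00914), Phkb, a subunit of the kinase that activates glycogen phosphorylase, by 0.47 (adjusted p = 0.0412) and Me1, the cytosolic malic enzyme, by 0.46 (adjusted p = 0.0455, and 0.0726 without RApIC replicate 2). Without RApIC replicate 2 Egln3 fell by 1.27, Gaa fell by 0.51 and Phkb fell by 0.60, and each still passed. Gaa and Phkb, picked out after their values were seen, had also fallen in pIC against PBS arrays, by 0.32 and 0.45 (adjusted p = 0.0366 and 0.0455). Against PBS, Fbp1 was the only one of the 76 to pass in RApIC arrays, with a fall of 0.88 (adjusted p = 0.0141), or 0.99 without RApIC replicate 2. Without that array 19 of the 76 passed against ATRA (14.5% of all genes did) and 10 against PBS (11.1% of all genes did).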

How the data were processed

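RNA of the sorted HSCs was purified (PicoPure), cleared of DNA and made into biotin-labelled cRNA, per the labels' protocols. The deposited values are log2 intensities of 41345 probe sets on 11 arrays; oligo 1.36.1, RMA and limma 3.28.20 are named, without role or order, per the submitters' processing notes. RMA brings arrays to 1 distribution, so a shift of all genes together cannot be seen in these values. No batch is named in the labels.

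Of the probe sets, 23521 have 1 gene symbol, 1814 several and 16010 are not named here; 23328 of the single-symbol ones matched the RefSeq gene table by gene ID, and no symbol was updated. Where a gene had several probe sets the brightest on average was kept (22180 genes, 1082 with more than 1 probe set).

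A limma model (3.58.1, R 4.3.3) of 4 group means was fitted to the 11 arrays together (7 residual degrees of freedom, 10.7 after moderation), with plain empirical Bayes, two-sided tests and Benjamini-Hochberg adjustment over all genes within each of 6 contrasts; a gene was called at an adjusted p under 0.05. It was tested on simulated data. Intervals are at the 95% level, and the number of arrays limits the precision. Named were the called genes, the 2 with the smallest adjusted p in each role, and up to 8 called neighbouring pathway genes per contrast. The gene list, roles, marker lists and tests were chosen with earlier results of these data known, so patterns seen earlier are not independent support.

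Alternatives were limma's array weights, a filter that drops the dimmest 40% of genes, the replicate number as a block, cyclic loess, averaging all probe sets per gene, only the groups compared, a trend and robust prior, and each array left out in turn. Promoter windows came from RefSeq on GRCm38.p6. Tables and figures were made in Python 3.11.15 with pandas 2.3.3, numpy 2.4.6, scipy 1.17.1 and matplotlib 3.10.9.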

Additional observations from a re-analysis of the deposited data

How the results depend on the processing

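The counts of called genes in RApIC comparisons depended on the settings. In RApIC against PBS the count of 2 became 11 with array weights, 5 with the dimmest 40% of genes left out, 1 with the replicate block, 0 in a fit of only the groups compared and 4 with a trend and robust prior, and lay between 0 and 10 with single arrays left out. In RApIC against ATRA the count of 5 became 18, 8, 4 (replicate block), 1 and 9 under the same settings, and lay between 1 and 12 with single arrays left out. The shares of all genes called moved too. Against PBS, 3.11% became 14.1%, 9.11%, 2.34%, 0.316% and 4.71% in the same order of settings. With single arrays left out it lay between 0.717% and 11.1%. Against ATRA, 7.21% became 20.7%, 16%, 6.12%, 1.38% and 8.9%, and lay between 2.15% and 14.5% with single arrays left out. In pIC against PBS the 9 calls lay between 2 and 10 with single arrays left out (3 without pIC replicate 1 and 2 without pIC replicate 2, where the lone array is assumed to vary like the other groups and all genes called fall to 963 and 664, against 3260), and between 7, with the replicate block, and 11 in the other settings. Aldoc and Idh3a were called in all 18 alternatives. The fall of Pdk1 turned into a difference of 0.12 (adjusted p = 0.566) with the mean of its probe sets. Of all genes, 12.8% passed in pIC against PBS with the replicate block and 16.2% with a trend and robust prior, against 14.7% in the main fit. Cyclic loess left 48.8% of all called genes higher instead of 60.9%, with 3 of these 35 genes higher and 5 lower. ATRA against PBS, RApIC against pIC and the interaction gave 0 calls in every setting run. The interaction compares all 4 groups, so a fit of only the groups compared was not run separately for it. Of 1014 uncalled values of named genes, 8 changed sign. The causes were not tested.

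Same-numbered arrays did not deviate together (r from -0.109 to 0.0976 over 15 pairs, and 0 of 11 arrays correlated best with their own number). These values give no sign that the replicate numbers pair samples. They cannot exclude pairing or a shared batch, because deviations from the means of such small groups are tied to each other. The r values of the 2 pIC arrays with any given array of another group were equal and opposite. The limits are the 2 pIC arrays, RApIC replicate 2, which stands apart, ATRA replicate 1 with some high neutrophil genes, and markers of other cells that moved with polyIC.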
